A study of Homo sapiens with 12 samples.

Results

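The 41 genes examined here encode mTOR, the subunits of its complexes, their upstream regulators, and the lysosomal machinery through which amino acids are sensed. They were taken from a list of symbols whose rule uses no measured value, although the list was drawn up with earlier results of these data known. Each symbol matched 1 gene of the 58735 genes in the count table. RNA-seq of total RNA and Ribo-seq, which sequences the mRNA fragments protected by ribosomes, were performed on 6 cultures of 293T 4A cells. These are human embryonic kidney cells transduced with a lentivirus that carries a doxycycline-inducible 4EBP1 in which phosphorylated residues were replaced by alanine (4EBP1-4A). The cells of both groups carry the construct and were sorted for GFP, and the sources used here do not state that they derive from 1 clone. Controls received DMSO (3 cultures), and the other 3 cultures received doxycycline (DOX) at 2 mg/mL, as written in the labels. The sample labels give a treatment of 12 h and the series text 2 h. The text of the study also states a longer time in places, and the conflict could not be resolved. All cultures were grown with 10% fetal bovine serum and 10 mM glutamine and were exposed to cycloheximide for 10 min before lysis, so the nutrient supply that these genes sense was not varied. Because the labels do not describe how the cultures were separated, p-values measure the spread between these libraries.

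mTOR is a kinase that works in a pair of complexes. mTORC1 contains RPTOR and phosphorylates S6 kinases and the 4EBP proteins, which releases translation initiation, whereas mTORC2 contains RICTOR and phosphorylates AKT. Growth factors reach mTORC1 through the TSC complex and the GTPase RHEB, and amino acids reach it through the Rag GTPases, which recruit it to the lysosome when GATOR1 is inactive. 4EBP1-4A cannot be phosphorylated by mTORC1 at the replaced sites and therefore acts below the kinase. The comparison shows whether the transcripts of the pathway itself differ between cultures with and without DOX, which induces this translational repressor. No cells without the construct received DOX, so effects of DOX itself and of 4EBP1-4A cannot be told apart.

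RNA-seq libraries of DMSO-treated cells held 51519700 to 57824136 reads on genes, those of DOX replicates 1 and 2 held 47862104 and 45887231, and that of DOX replicate 3 held 21687906. DOX replicate 3 also stood apart in composition, with 88.4% of its reads not uniquely aligned against 54.9% to 69.9% in the other RNA-seq libraries, and with mitochondrial genes at 5.76% of the reads on genes against 11.8% to 15.8%. Its results are therefore given with and without it. Ribo-seq libraries held only 210186 to 1002424 reads on genes. The gene EIF4EBP1, whose reads include any from the construct, had a scaled level of 153, 154 and 168 CPM (read counts relative to library size, scaled with edgeR's TMM factors) in DMSO and 257, 279 and 285 in DOX. The groups did not overlap, which matches the labels. All 7 genes taken as markers of this cell line (NEFL, NEFM, VIM, LIN28B, PAX2, IGF2BP1 and HOXA9) had reads in every library. PAX2 had the fewest of them, 70 to 112 reads, below the 417 to 627 reads of the fibroblast marker COL1A1. The presence of reads alone therefore does not establish a kidney lineage. Of the 13 markers of skin, blood, liver and fibroblasts, KRT10 (56 to 313 reads) and COL1A1 (417 to 627 reads) exceeded 16 reads in a library, and KRT5 and KRT14 were at 0. In bulk RNA, a lower level in fewer cells and a lower level in every cell cannot be told apart.

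All 41 genes were transcribed in these cells. The lowest count of any of them in any RNA-seq library was 128 reads, so all 41 passed the filter of 10 reads in 3 libraries. Per length, levels in DMSO (TPM, read counts relative to exon length and to the library, mean ± SD, n = 3) spanned a 57.6-fold range around a median of 25.3 TPM. At the top were the light and heavy chains of the large neutral amino acid exchanger, SLC7A5 with 188 ± 17.0 TPM and SLC3A2 with 149 ± 19.5 TPM. They were followed by LARP1, an RNA-binding repressor of mRNAs of the translation machinery, with 132 ± 14.2 TPM, and by the Rag GTPase RRAGA with 99.3 ± 4.19 TPM. MTOR itself stood at 80.6 ± 3.15 TPM, above RPTOR (26.7 ± 2.64 TPM) and RICTOR (18.04 ± 1.21 TPM), the scaffolds that define its complexes. The lowest were DEPDC5, a GATOR1 subunit, with 3.27 ± 0.290 TPM, the mTOR inhibitor DEPTOR with 6.54 ± 0.859 TPM, and the mTORC2 subunit PRR5 with 7.64 ± 0.806 TPM.

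**Figure D1:**
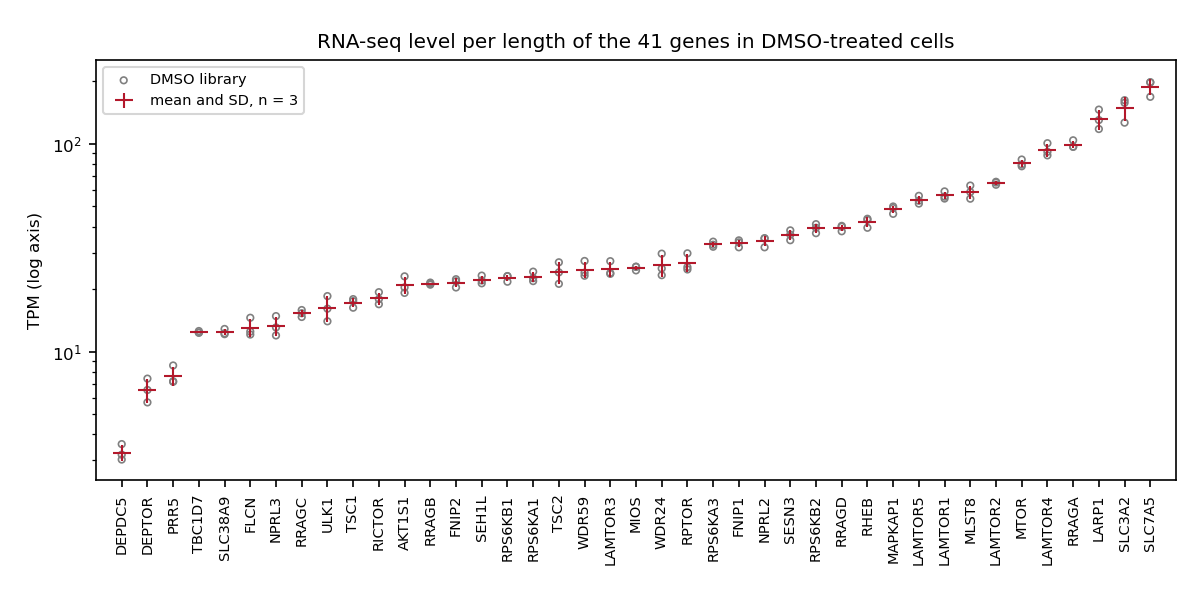
RNA-seq level per length (TPM, log axis) of the 41 genes in the 3 DMSO libraries, in order of their mean, with open circles for libraries and bars for mean and SD. Levels run from 3.27 TPM for DEPDC5 to 188 TPM for SLC7A5, and most genes lie between 10 and 100 TPM.

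On this measure, subunits of complexes with fixed partners were not at equal levels. TPM used the merged exons of all transcripts of a gene, which for SEH1L span 10481 bases against 1851 in its reference transcript. For FLCN they span 9786 against 3667 bases, and for LAMTOR3 4164 against 4163. The order of genes, here and in the paragraph above, can therefore change with the length used. Levels per reference transcript were not computed. Among the Ragulator subunits, which anchor the Rag GTPases to the lysosomal membrane, LAMTOR4 had 93.5 ± 6.57 TPM and LAMTOR3 24.9 ± 2.01 TPM, with the other 3 in between. RRAGA, which pairs with RRAGC or RRAGD, exceeded its close relative RRAGB (21.2 ± 0.245 TPM), and RRAGD (39.4 ± 1.26 TPM) exceeded RRAGC (15.3 ± 0.584 TPM). The 4 GATOR2 subunits on the gene list lay close together, from 22.2 TPM for SEH1L to 26.0 TPM for WDR24. SEC13, a GATOR2 subunit outside that list, had 66.7 ± 4.05 TPM, so GATOR2 as a whole was not at equal levels. GATOR1 ranged from DEPDC5 to NPRL2 with 34.0 ± 1.93 TPM. Folliculin (FLCN), the activator of RRAGC and RRAGD, had 13.0 ± 1.32 TPM, below its partners FNIP2 (21.5 ± 1.01 TPM) and FNIP1 (33.2 ± 1.30 TPM).

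With all 6 RNA-seq libraries, none of the 41 genes differed between DOX and DMSO in edgeR's quasi-likelihood test at an adjusted p of 0.05. The count was 0 lower and 0 higher, beside 0% of the 20552 genes tested called lower and 0% called higher. EIF4EBP1, outside the 41, was not called by this test either (log2 fold change 0.79 ± 0.09, adjusted p of 0.303). The counts of 0 therefore do not show that levels were alike. At an unadjusted p under 0.05 there were 5 of the 41 genes and 3073 of all genes. DESeq2's Wald test also called 0 of the 41, beside 2 lower and 1 higher of all 20551 genes it tested. edgeR's likelihood ratio test called 0 of the 41, beside 8 lower and 4 higher of all 20552. The median log2 fold change of the 41 was -0.03, beside 0.00 for all genes tested, with 23 values below 0 and 18 above. Values ranged from -0.63 for SLC38A9 to 0.56 for ULK1, with SEs of 0.08 to 0.30. All DOX libraries lay below all DMSO libraries for 12 of the 41 genes and above them for 8, where 18.9% and 19.7% of all genes tested did so. These shares correspond to 7.76 and 8.06 of 41 genes.

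**Figure D2:**
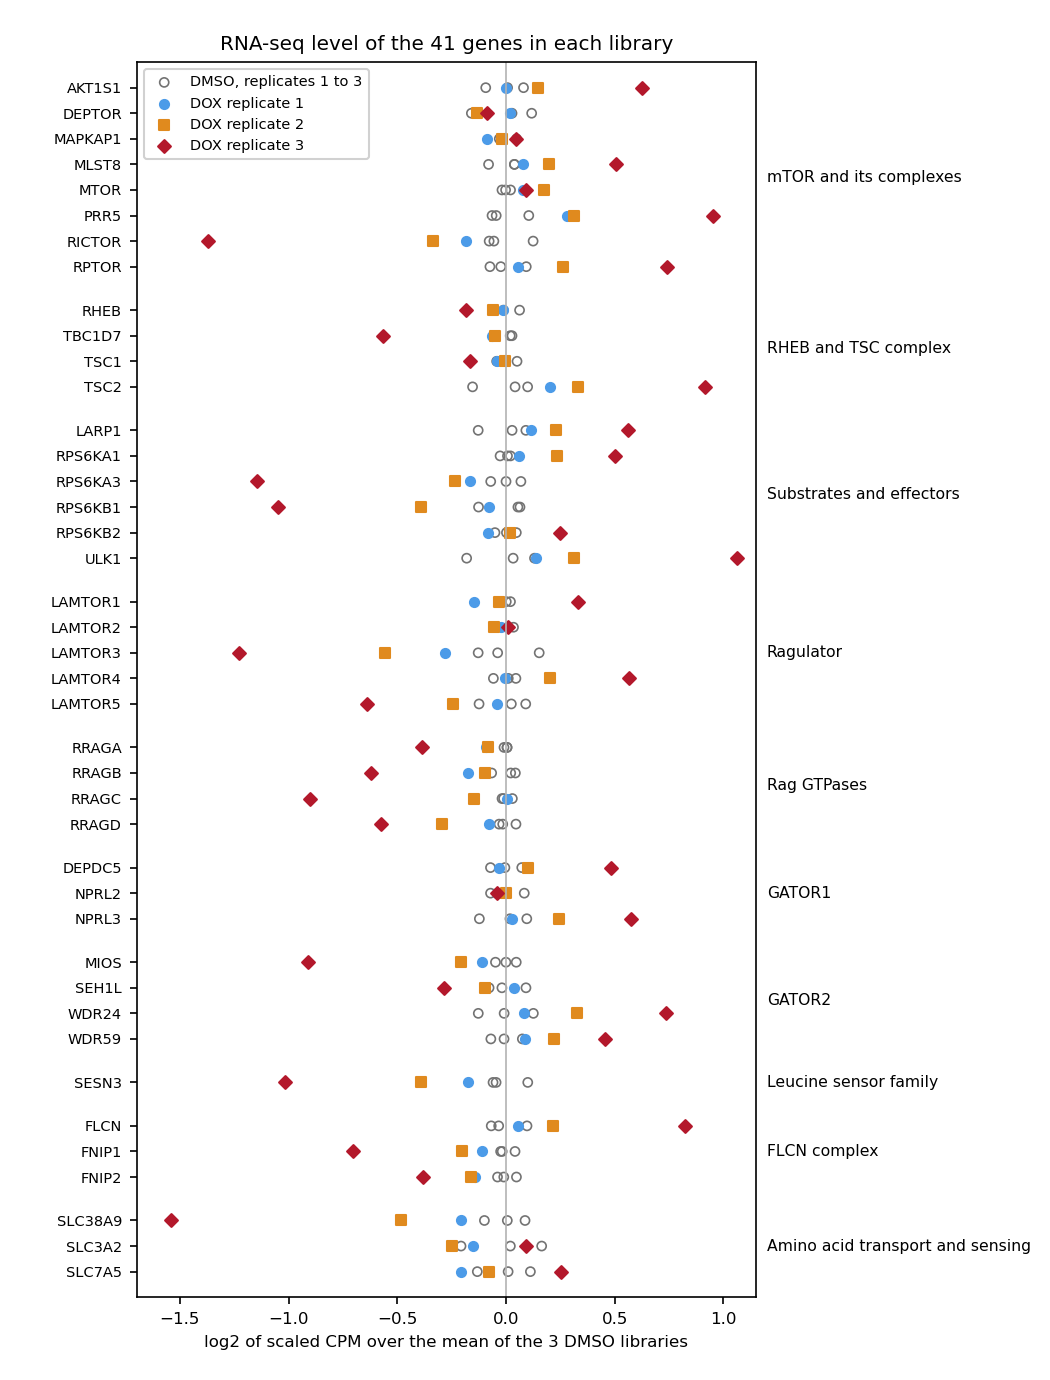
Level of each of the 41 genes in each RNA-seq library, as the log2 of the scaled CPM over the mean of the 3 DMSO libraries, grouped by role. DOX replicates 1 and 2 stay within 0.56 of the DMSO mean, whereas DOX replicate 3 spans -1.54 (SLC38A9) to 1.06 (ULK1).

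DOX replicate 3 set the width of this range. The SD over the 41 genes of their log2 level relative to the DMSO mean was 0.12 in DOX replicate 1, 0.24 in replicate 2 and 0.71 in replicate 3. Over the 15133 genes of at least 1 CPM it was 0.17, 0.26 and 0.74. Without DOX replicate 3, 4 of the 41 genes were lower (LAMTOR3, SLC38A9, SESN3 and RICTOR) and 2 were higher (PRR5 and TSC2) at an adjusted p under 0.05. Of the 21234 genes tested in the same 5 libraries, 3.08% were lower and 3.62% higher, which corresponds to 1.26 and 1.48 of 41. In this comparison 18 of the 41 genes had an unadjusted p under 0.05, beside 5353 of all genes, and the median log2 fold change of the 41 was -0.04. These calls also depended on the other 5 libraries. Leaving out DOX replicate 2 as well gave 0 calls among the 41 genes (0.0429% of all genes tested), leaving out DMSO replicate 1 gave 1 (SLC3A2, lower; 1.36% of all), and leaving out DMSO replicate 3 gave 1 (LAMTOR3, lower; 2.62% of all). Leaving out DMSO replicate 2 gave 11 (13.4% of all) and leaving out DOX replicate 1 gave 10 (14.3% of all).

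Among mTOR and its complexes, RICTOR and PRR5, both of mTORC2, differed without DOX replicate 3. RICTOR had a scaled level of 88.1, 76.6 and 77.7 CPM in DMSO and of 71.0, 64.0 and 31.3 CPM in DOX. All DOX libraries were below all DMSO libraries, with the lowest in replicate 3. The log2 fold change was -0.54 ± 0.28 (SE, n = 3 and 3) with an adjusted p of 0.305, and -0.26 ± 0.08 with an adjusted p of 0.0456 without DOX replicate 3. PRR5, a smaller subunit bound to mTORC2, had 12.7, 14.3 and 12.9 CPM in DMSO and 16.1, 16.5 and 25.7 CPM in DOX. Its DOX libraries were all above DMSO, again with the extreme in replicate 3. The log2 fold change was 0.54 ± 0.20 (adjusted p of 0.303), and 0.30 ± 0.09 (adjusted p of 0.0478) without that library. Exons of the readthrough gene PRR5-ARHGAP8 cover 17.8% of the exon bases of PRR5 on the same strand, so its reads could be divided between them. The kinase itself, MTOR, measured 354, 358 and 364 CPM in DMSO and 378, 404 and 382 CPM in DOX. The 3 DOX values were above the DMSO values by a log2 fold change of 0.11 ± 0.08 (adjusted p of 0.388), within the range that the test could not separate. The remaining subunits RPTOR, MLST8, AKT1S1, DEPTOR and MAPKAP1 had log2 fold changes of -0.07 to 0.38 and did not pass the test with or without DOX replicate 3.

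In the TSC complex, which inactivates RHEB, TSC2 was higher without DOX replicate 3. TSC2, the subunit with the GTPase-activating domain, had 147, 176 and 169 CPM in DMSO and 189, 207 and 309 CPM in DOX. The groups did not overlap. The log2 fold change was 0.52 ± 0.19 (adjusted p of 0.303), and 0.27 ± 0.07 (adjusted p of 0.0363) without DOX replicate 3. TSC1, its stabilizing partner, had a log2 fold change of -0.07 ± 0.09, and its groups overlapped. TBC1D7 and RHEB gave -0.20 ± 0.15 and -0.09 ± 0.10. The difference between TSC2 and TSC1 was not itself tested.

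Of the 6 substrates and effectors, none passed either test. LARP1 had 489, 570 and 545 CPM in DMSO and 579, 628 and 789 CPM in DOX. ULK1, the autophagy-initiating kinase that mTORC1 inhibits, had 36.1, 44.8 and 41.9 CPM in DMSO and 45.1, 50.9 and 85.4 CPM in DOX. Both were above DMSO in every DOX library, by log2 fold changes of 0.32 ± 0.13 and 0.56 ± 0.24 (adjusted p of 0.303 for each). RPS6KA3, a kinase of the RSK family driven by ERK, had 112, 102 and 107 CPM in DMSO and 95.4, 91.1 and 48.4 CPM in DOX. It was below DMSO in every DOX library, with a log2 fold change of -0.45 ± 0.24 (adjusted p of 0.308). The S6 kinase genes RPS6KB1 and RPS6KB2 had log2 fold changes of -0.45 ± 0.23 and 0.07 ± 0.11, with overlapping groups.

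In the lysosomal branch, LAMTOR3 had the lowest adjusted p of the 41 genes without DOX replicate 3. LAMTOR3 is a scaffold subunit of Ragulator and had 38.5, 31.7 and 33.7 CPM in DMSO. In DOX it had 28.5, 23.5 and 14.8 CPM, all below the DMSO libraries. The log2 fold change was -0.63 ± 0.23 (adjusted p of 0.303), and -0.41 ± 0.10 (adjusted p of 0.021) without DOX replicate 3. LAMTOR2, its direct partner, measured 31.0, 29.4 and 30.5 CPM in DMSO and 29.8, 29.1 and 30.5 CPM in DOX. These groups overlapped, with a log2 fold change of -0.02 ± 0.09. The other Ragulator subunits ranged from -0.28 for LAMTOR5 to 0.27 for LAMTOR4.

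All 4 Rag GTPases had negative log2 fold changes, from -0.18 for RRAGA to -0.30 for RRAGD, and none passed either test. RRAGD, whose gene is a known target of the MiT/TFE transcription factors, had 68.9, 65.3 and 66.1 CPM in DMSO and 63.2, 54.4 and 44.8 CPM in DOX. Its groups did not overlap, and the adjusted p was 0.303. In GATOR1, which inactivates RRAGA and RRAGB, and in GATOR2, which opposes GATOR1, no gene passed the test. MIOS, a GATOR2 subunit, had 58.3, 54.6 and 56.5 CPM in DMSO and 52.2, 48.9 and 30.1 CPM in DOX, all below DMSO (log2 fold change -0.37 ± 0.20, adjusted p of 0.311). The other GATOR genes ranged from -0.11 for SEH1L to 0.40 for WDR24. For WDR24, 35.7% of the exon bases overlap an antisense transcript, and whether strand was used in counting is not stated.

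SESN3, a member of the Sestrin family that binds GATOR2, was among the genes lower without DOX replicate 3. It had 137, 123 and 124 CPM in DMSO and 114, 97.8 and 63.4 CPM in DOX, with no overlap. The log2 fold change was -0.48 ± 0.20 (adjusted p of 0.303), and -0.28 ± 0.07 (adjusted p of 0.0325) without DOX replicate 3. In the FLCN complex, FNIP1 had 89.8, 86.2 and 85.8 CPM in DMSO and 80.8, 75.7 and 53.6 CPM in DOX, all below DMSO. Its log2 fold change of -0.32 ± 0.16 did not pass the test (adjusted p of 0.304), nor did those of FNIP2 (-0.22 ± 0.11) and FLCN (0.40 ± 0.20).

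Of the amino acid transporters, SLC38A9, the lysosomal arginine sensor, was lower without DOX replicate 3. It had 36.6, 34.0 and 38.8 CPM in DMSO and 31.6, 26.1 and 12.5 CPM in DOX, with no overlap. The log2 fold change was -0.63 ± 0.30 (adjusted p of 0.303), and -0.34 ± 0.09 (adjusted p of 0.031) without DOX replicate 3. SLC7A5 had 272, 300 and 322 CPM in DMSO and 259, 282 and 355 CPM in DOX, and SLC3A2 had 274, 321 and 355 CPM in DMSO and 285, 266 and 337 CPM in DOX. Both overlapped between groups and gave log2 fold changes of 0.00 ± 0.14 and -0.10 ± 0.13.

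The order of the 41 genes followed the base composition of their transcripts. The 4 genes lower without DOX replicate 3 had transcripts with a GC content of 36.5% to 39.9%, and the 2 higher genes had 60.4% (TSC2) and 66.7% (PRR5). Over the 41 genes, the Spearman correlation of GC content with the log2 level relative to the DMSO mean was 0.60 in DOX replicate 1, 0.83 in replicate 2 and 0.91 in replicate 3. Over 15133 genes it was 0.50, 0.71 and 0.78. The 20 genes of lowest GC content (36.5% to 50.2%) had median log2 values of -0.08, -0.18 and -0.63 in the 3 DOX libraries, and the other 21 had 0.03, 0.20 and 0.51. The points share their libraries, so these correlations are descriptions. Within the DMSO group, where no treatment differs, the same correlation of each library against the mean of the other 2 was -0.84, 0.78 and 0.31. Transcript length showed correlations of -0.13 to -0.03 in the DOX libraries.

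**Figure D3:**
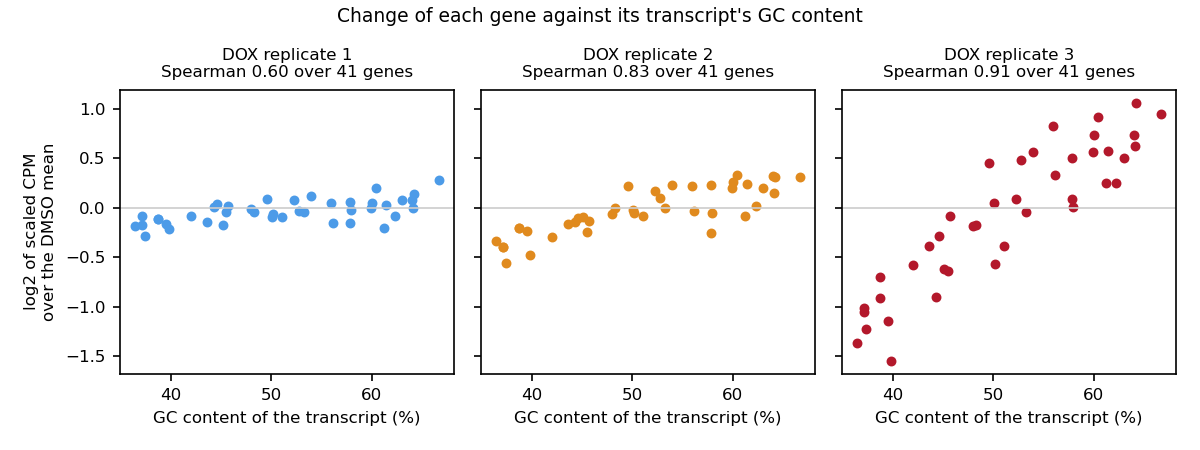
Log2 of the scaled CPM over the DMSO mean for each of the 41 genes against the GC content of its reference transcript, in 1 panel per DOX library. The slope is shallow in replicate 1 and steepest in replicate 3, where the 20 genes of lowest GC content have a median of -0.63.

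The test was therefore repeated with an offset per library and gene that follows the smooth trend of level on GC content, an alternative chosen after seeing the data. Without DOX replicate 3 and with these offsets, 0 of the 6 genes named above passed. LAMTOR3 was nearest with a log2 fold change of -0.23 ± 0.06 (adjusted p of 0.0538), SLC38A9 followed with -0.20 ± 0.06 (adjusted p of 0.0966), and TSC2 gave 0.12 ± 0.05 (adjusted p of 0.179). RICTOR, SESN3 and PRR5 were within 0.10 of 0. Another 4 of the 41 genes were called lower and 0 higher, beside 1.78% and 2.09% of the 21234 genes tested. SLC7A5 had a log2 fold change of -0.30 ± 0.05 (adjusted p of 0.00915) and SLC3A2, its partner chain, of -0.32 ± 0.07 (adjusted p of 0.032). RPS6KB2 had -0.21 ± 0.04 (adjusted p of 0.0219) and LAMTOR1, the subunit that holds Ragulator on the membrane, -0.19 ± 0.05 (adjusted p of 0.0378). With all 6 libraries and the offsets, none of the 41 genes passed (lowest adjusted p of 0.314), and the log2 fold changes of SLC7A5 and SLC3A2 were -0.35 ± 0.07 and -0.35 ± 0.09. Which genes were called thus depended on this setting, and 28 of the 41 log2 fold changes were below 0 with the offsets in 6 libraries, against 23 without.

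**Figure D4:**
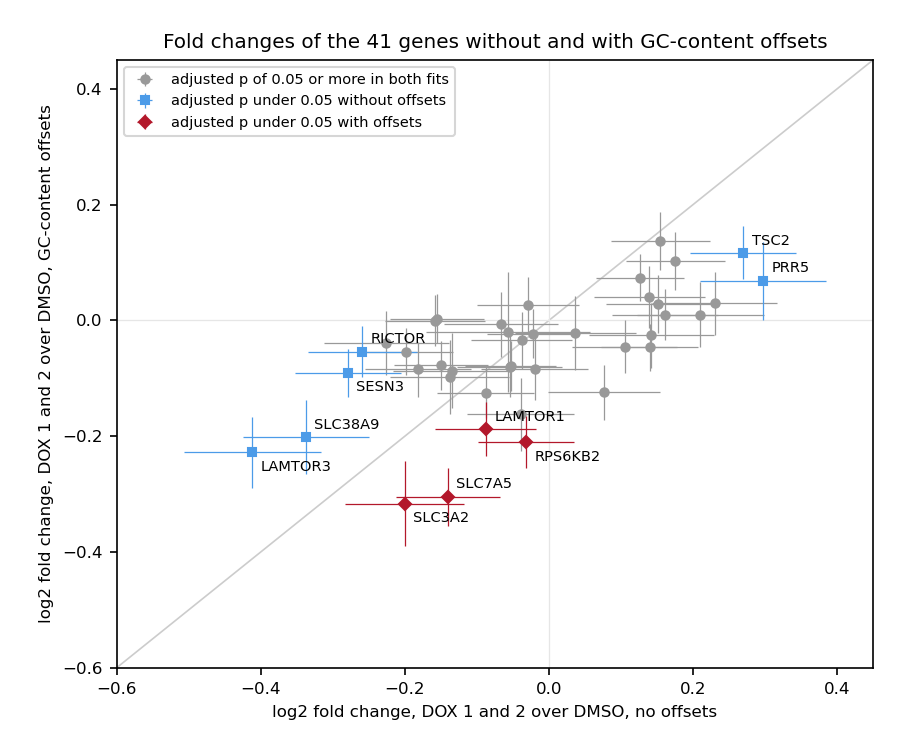
Log2 fold change of each of the 41 genes without DOX replicate 3, without offsets (horizontal axis) and with GC-content offsets (vertical axis), with SEs as bars. The 6 genes called without offsets (squares) move toward 0, and SLC7A5, SLC3A2, RPS6KB2 and LAMTOR1 (diamonds) lie below the diagonal at -0.19 to -0.32.

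Of 61 other genes of the pathway, from insulin receptor to AMPK, 60 passed the filter. With 6 libraries edgeR's quasi-likelihood test called 0 of them, with 9 at an unadjusted p under 0.05. DESeq2's Wald test (log2 fold change 0.79, adjusted p of 1.01e-08) and the likelihood ratio test (adjusted p of 1.74e-05) called EIF4EBP1. Of all genes, the Wald test called 2 lower and 1 higher of 20551, and the likelihood ratio test 8 and 4 of 20552. Without DOX replicate 3, 5 were lower and 4 higher, beside 3.08% and 3.62% of all genes tested. EIF4EBP1 was among the higher (log2 fold change 0.76 ± 0.07, adjusted p of 8.91e-06). TELO2, a chaperone adaptor for mTOR, had 0.34 ± 0.08 (adjusted p of 0.0182), the KICSTOR subunit KPTN 0.34 ± 0.10 (adjusted p of 0.0414) and the kinase RPS6KA4 0.27 ± 0.07 (adjusted p of 0.0354). Lower were DDIT4, a stress-induced inhibitor of mTORC1, with -0.37 ± 0.10 (adjusted p of 0.0319), SAMTOR (BMT2), the sensor of S-adenosylmethionine, with -0.40 ± 0.12 (adjusted p of 0.0454), the kinase RPS6KA6 with -0.29 ± 0.08 (adjusted p of 0.0399), and PDCD4, an inhibitor of eIF4A, with -0.25 ± 0.07 (adjusted p of 0.048). PIK3CA was the fifth. With GC-content offsets, DDIT4 and EIF4EBP1 were called and the other 7 were not, while SLC1A5, SESN2 and GRB10 were called lower (GRB10 with -0.18 ± 0.04, adjusted p of 0.0293), beside 1.78% of all genes tested called lower and 2.09% higher.

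The E-box CACGTG, the core of sites bound by the MiT/TFE factors that FLCN controls, was searched in promoters because RRAGC, RRAGD and FNIP genes are known targets of these factors. RefSeq promoters on GRCh38.p14, from 250 bases before to 50 after the start, matched 35 of the 41 genes, and AKT1S1, DEPTOR, MLST8, RRAGA, RRAGD and WDR24 were not matched. The E-box stood in 8 of the 35 (22.9%), beside 7.26% of all 35116 promoters and 9.85% of the 12558 promoters of tested genes. The 8 were RRAGB, RRAGC, FNIP1, LAMTOR1, LAMTOR4, NPRL3, TSC2 and SLC7A5, with 3 matches in RRAGB and 2 in FNIP1. Those upstream of the start are printed on the strand of the gene, to show how much the flanks differ, with the E-box in capitals.
RRAGC, chr1:38859867-38859896, - strand: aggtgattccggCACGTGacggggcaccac
FNIP1, chr5:131797175-131797204, - strand: ccccgcccctgcCACGTGacgggacccgcc
FNIP1, chr5:131797094-131797123, - strand: tccgcgcgccgcCACGTGatgcggcccccc
LAMTOR4, chr7:100148892-100148917, + strand: agcggctgcaagCACGTGaccggggc
LAMTOR1, chr11:72103445-72103474, - strand: ctttccccgcatCACGTGcttgcgtgtacg
TSC2, chr16:2047859-2047888, + strand: atgcggccccgtCACGTGatgcaaggatcg
SLC7A5, chr16:87869620-87869649, - strand: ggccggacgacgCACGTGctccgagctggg
RRAGB, chrX:55717622-55717651, + strand: ctgagccaaggcCACGTGatgatgacagac
RRAGB, chrX:55717712-55717741, + strand: ggtagcggcagtCACGTGacagactccggg

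The genes with an E-box did not share a direction. Among them, TSC2 was higher without DOX replicate 3 and the other 7 did not pass the quasi-likelihood test without offsets or replicate block, while LAMTOR1 and SLC7A5 were lower with GC-content offsets. The ATF4-type element TGATGNAA, searched on both strands, was in 2 of the 35 promoters (5.71%; SLC3A2 and TSC2), beside 3.62% of all promoters and 1.77% of those of tested genes. In TSC2 it overlaps the E-box by 2 bases, at positions -110 to -103 from the start, where the E-box spans -114 to -109. The stretch that holds it, with the element in capitals, reads as follows.
TSC2, chr16:2047864-2047893, + strand: gccccgtcacgTGATGCAAggatcgccggc

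Ribo-seq gave too few reads to describe the translation of these genes. Over the 6 Ribo-seq libraries the 41 genes had 1871 reads in all, and 15 of them had 0 reads in every library. A count of 0 allows up to 3 reads, which is 2.99 to 14.3 CPM depending on the library, and this floor covers counting error only. Another 21 genes had 1 to 9 reads. The 5 with at least 10 reads were LAMTOR2 (1706), TSC2 (59), SLC7A5 (19), SLC3A2 (11) and RPTOR (10). MTOR had 2 reads in Ribo-seq against 102538 in RNA-seq, and LARP1 had 1 against 159994.

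The change in translation efficiency (TE, Ribo-seq relative to RNA-seq) could be tested only for these 5 genes, and 0 of 5 were called, beside 0.15% of the 1334 genes tested. Their log2 changes in TE were -1.30 ± 1.23 (SE) for LAMTOR2, 0.15 ± 1.181 for TSC2, -0.22 ± 1.005 for SLC7A5, -0.96 ± 1.215 for SLC3A2 and -0.10 ± 1.505 for RPTOR, with adjusted p of 0.624 to 0.982. With SEs above 1 on the log2 scale, small changes were not detectable, and the values do not show that TE was alike. The SE was 1.23 for LAMTOR2 with 1706 Ribo-seq reads and 1.005 for SLC7A5 with 19.

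The level of the 41 genes summed in Ribo-seq was that of LAMTOR2. LAMTOR2 held 91.2% of their reads, with 175, 1045 and 93 reads in DMSO and 75, 146 and 172 in DOX, and 61.3% of them came from DMSO replicate 2. Summed over the 41 genes, the level was 861, 1516 and 134 CPM in DMSO and 137, 303 and 630 CPM in DOX. The groups overlapped, with a log2 ratio of means of -1.23 (exact permutation test, two-sided, p = 0.4, where 0.1 is the smallest p that 3 against 3 allow). Without LAMTOR2 the other 40 genes had 28.6, 58.6 and 40.9 CPM in DMSO and 52.1, 24.8 and 56.7 CPM in DOX, a log2 ratio of 0.06 (exact p = 1).

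LAMTOR2 is a + strand gene of chromosome 1 (GRCh38, 156054782 to 156058506), and its Ribo-seq reads stood beside other genes of the same strand. Of the 18 other protein-coding genes on the + strand within 600 kb, 9 had at least 100 Ribo-seq reads and 8 had at most 3, with a median of 103. Genes at 0 included TMEM79, TSACC, RHBG and NAXE, which start downstream of BGLAP (24890 reads), so high counts did not extend over the whole window. Of the 17 on the - strand, none had more than 10, with a median of 1. The Ribo-seq counts of the + strand genes did not follow their RNA-seq counts. RAB25, the next gene downstream, had 1496 reads in Ribo-seq and 51 in RNA-seq, RXFP4 had 312 and 3, and SEMA4A had 59476 and 848. PMF1 had the most, 610007 in Ribo-seq against 6983 in RNA-seq, and SLC25A44 had 379967 against 14149. The lncRNA ARHGEF2-AS1 of the same strand had 515385 against 2. Reads of these genes are a large part of the Ribo-seq library totals of 210186 to 1002424, on which every Ribo-seq CPM given above rests. The LAMTOR2 count is therefore given without reading it as translation, and the sequence of the library linker was not compared with this region here.

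**Figure D5:**
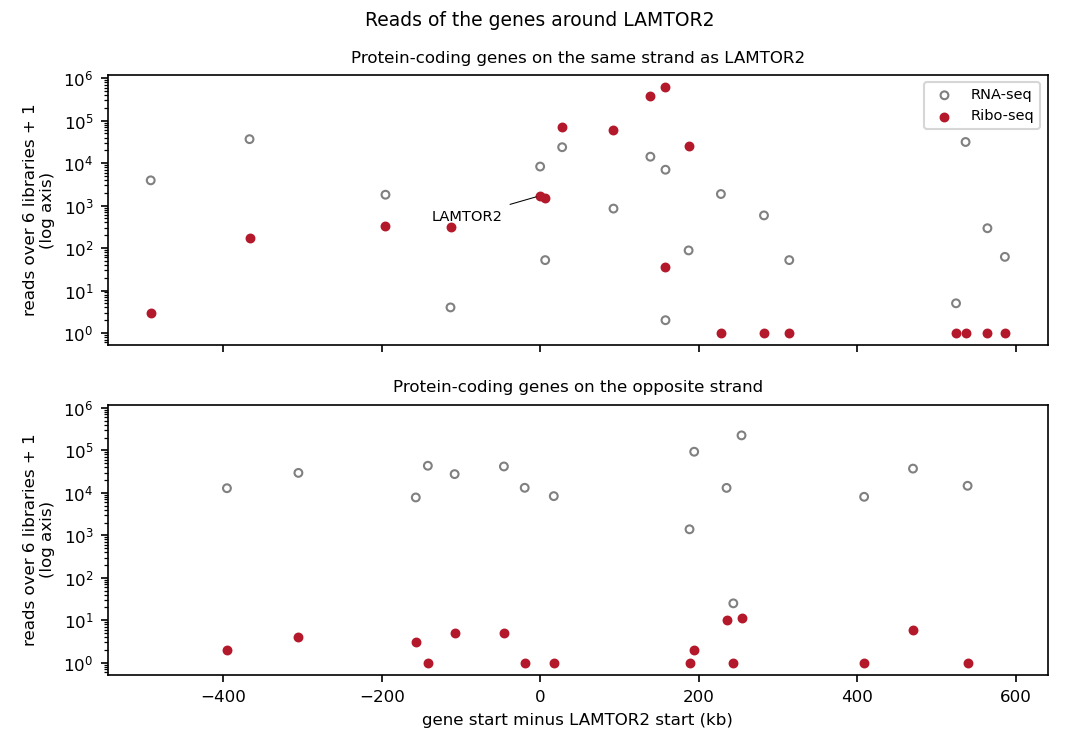
Reads summed over 6 libraries plus 1 (log axis) of protein-coding genes within 600 kb of LAMTOR2, by the distance of their start from that of LAMTOR2 in kb, with Ribo-seq filled and RNA-seq open. On the strand of LAMTOR2 (upper panel) Ribo-seq reaches 610007 reads, and on the opposite strand (lower panel) it stays at or below 10.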

How the data were processed

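The deposited table holds raw counts of reads per gene, which the authors made by trimming the linker from Ribo-seq reads, removing ribosomal RNA, aligning with STAR and counting unique reads on exons. The methods name both GRCh38 and a GRCh37 annotation, the labels name Ensembl release 75, and the use of strand is not stated. All 12 columns of samples were used. A deposited table of TE, with the authors' fold changes and p-values, was used for symbols only. Reads without a gene (69.2% to 94.1% of RNA-seq, 97.1% to 99.1% of Ribo-seq), spike-ins and viral genes (186 rows of the table with no human gene) were left out of library sizes and tests.

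Symbols matched GENCODE release 44 (GRCh38), which gave coordinates, lengths of merged exons for TPM, and the GC content of reference transcripts. RNA-seq groups were compared with edgeR 4.0.16 (R 4.3.3), TMM scaling and the quasi-likelihood test, with Benjamini-Hochberg adjustment over all genes with at least 10 reads in at least 3 of 6 (or 2 of 5) libraries and a threshold of 0.05. TE was the assay by treatment interaction over 12 libraries, for genes with at least 10 reads in each assay. Other settings included DESeq2 1.42.0. Errors of fold changes are SEs derived from the test statistic. The script was tested on simulated data with known changes. Figures were drawn with matplotlib 3.10.9 from Python 3.11.15.

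The 41 genes, their roles and the other gene lists were chosen with earlier results of these data known. Values in every library are given for genes called in either RNA-seq comparison and for those with groups that do not overlap and an absolute log2 fold change of at least 0.3, and up to 8 of the other pathway genes called are given with their values. SLC7A5, SLC3A2, RPS6KB2, LAMTOR1, MTOR, LAMTOR2, SESN1, SESN2, SLC1A5, SLC36A1, CASTOR1, GRB10, SEC13 and the name of PIK3CA were added after their values were seen.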

Additional observations from a re-analysis of the deposited data

How the results depend on the processing

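With all 6 RNA-seq libraries, the counts of 0 lower and 0 higher among the 41 genes did not change under DESeq2's size factors, library totals, both filters, DESeq2's Wald test, the likelihood ratio test, the replicate block or GC-content offsets. Of all genes tested, the Wald test called 2 lower and 1 higher, the likelihood ratio test 8 and 4, and the other settings 0. Leaving out 1 library at a time gave 0 to 4 lower and 0 to 2 higher, with calls only when DOX replicate 3 was left out. Without DOX replicate 3, the 4 lower and 2 higher genes became 2 and 2 with library totals (333 lower and 1420 higher of all genes), 4 and 1 without a filter (776 and 635 of all), 10 and 8 with the replicate block, and 4 and 0 with GC-content offsets, of which 0 are shared with the 6 called without offsets. Leaving out a further library gave 0 to 6 lower and 0 to 5 higher, where 0.0429% to 14.3% of all genes tested were called. Same-numbered DMSO and DOX libraries deviated from their group means with correlations of 0.28, -0.23 and 0.02, so the numbers were not taken to pair the samples, and the replicate block (2151 lower and 2074 higher of all genes, in place of 654 and 769) is given as a setting only. In that fit replicate 3 holds DMSO alone and adds nothing to the contrast.

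The median log2 fold change of the 41 genes was -0.03, and became 0.0715 with library totals, which shift the median of all genes from 0.00 to 0.10, -0.0687 without a filter and -0.0734 with GC-content offsets, and -0.0528 to -0.019 when 1 library was left out. The direction turned for 17 of the 41 genes under at least 1 of 14 alternatives, none of them past the threshold. With library totals the log2 fold changes were 0.0291 for DEPTOR, 0.0821 for MAPKAP1, 0.0113 for RHEB, 0.0277 for TSC1, 0.077 for LAMTOR2, 0.0715 for NPRL2 and 0.00842 for SLC3A2, and 0.0248 for RPS6KB2 without DOX replicate 3. With GC-content offsets they were -0.124 for MLST8, -0.162 for AKT1S1, 0.0148 for DEPTOR, -0.305 for RPS6KB2, -0.158 for LAMTOR1, -0.0534 for LAMTOR4, -0.0614 for NPRL3, -0.032 for WDR24, 0.0117 for SEH1L, 0.00735 for FNIP1 and -0.352 for SLC7A5. SLC7A5 was at -0.0458 without a filter and -0.00775 with the replicate block. With 1 library left out, values ran from -0.0535 to 0.014 for MAPKAP1, -0.0316 to 0.137 for RPS6KB2 (-0.0831 to 0.0183 when DOX replicate 3 was left out too), -0.0876 to 0.161 for LAMTOR1, -0.0636 to 0.0151 for NPRL2 and -0.141 to 0.0962 for SLC7A5. The causes were not tested.

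No TE call was made among the 41 genes under any alternative, with only 5 of them in the main test. Of all 1334 genes tested, the likelihood ratio test called 131 lower and 85 higher, and the replicate block 0 and 0. DESeq2's Wald test called 40 lower and 24 higher of 1065. Without a filter, 4 were lower and 3 higher of 11670. The summed Ribo-seq level had a log2 ratio of -1.23, -1.21 with TMM-scaled library sizes, 0.0608 without LAMTOR2, and -1.93 to -0.48 with 1 library left out. Depth limits Ribo-seq, since 36 of the 41 genes had fewer than 10 reads. In RNA-seq the spread between DOX libraries limits the comparison, with SEs of 0.08 to 0.30 for the 41 genes in 6 libraries and 0.06 to 0.11 in 5.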

Other observations

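The values of 3 genes outside the 41 (DDIT4, SESN2 and SLC1A5), 2 of them picked after their values were seen, are given here with and without GC-content offsets, a setting chosen after seeing the data. DDIT4 had 147, 186 and 204 CPM in DMSO and 147, 130 and 208 CPM in DOX, with the value of DOX replicate 3 the highest of all. SESN2, a leucine sensor of the Sestrin family, had 145, 176 and 194 CPM in DMSO and 137, 146 and 224 CPM in DOX. SLC1A5, a glutamine transporter, had 367, 407 and 423 CPM in DMSO and 359, 361 and 399 CPM in DOX. All 3 overlapped between groups. Without DOX replicate 3 and with the offsets, the log2 fold changes were -0.49 ± 0.09 for DDIT4 (edgeR adjusted p of 0.0152), -0.42 ± 0.07 for SESN2 (adjusted p of 0.0107) and -0.31 ± 0.05 for SLC1A5 (adjusted p of 0.00787). With 6 libraries and offsets they were -0.43 ± 0.12, -0.35 ± 0.10 and -0.43 ± 0.11, and none passed the test. Without offsets and without DOX replicate 3, edgeR's quasi-likelihood test called DDIT4 (-0.37 ± 0.10, adjusted p of 0.0319). It did not call SESN2 (-0.28 ± 0.09) or SLC1A5 (-0.15 ± 0.07). In the same libraries SESN2 was called by DESeq2's Wald test (adjusted p of 0.0365) and the likelihood ratio test (adjusted p of 0.0484). The quasi-likelihood test also called SESN2 without a filter (adjusted p of 0.0373) and with the replicate block (adjusted p of 0.0293). Its call thus depended on the test and the setting. DDIT4 was not called by DESeq2's Wald test in these libraries. SESN3, which was lower without offsets, had -0.09 ± 0.04 with them (adjusted p of 0.251). For 3 further genes, also named after their values were seen, the log2 fold changes without DOX replicate 3 and with the offsets were -0.01 ± 0.04 for SESN1, -0.05 ± 0.05 for SLC36A1 and 0.53 ± 0.26 for CASTOR1, and 0 of these 3 were called by edgeR's quasi-likelihood test with the offsets. CASTOR1 had only 19, 29 and 25 reads in DMSO and 32, 38 and 8 in DOX. Its scaled level in DOX replicate 3 was below the DMSO mean (log2 value of -0.47, no offsets).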
